A study of Arabidopsis thaliana with 6 samples.

Results

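The 32 genes described here were bright on arrays of young Arabidopsis thaliana pods and dim on arrays of old pods, and the array annotation knows each of them only by its nuclear locus tag. They were chosen from the measured signals: the lowest of 3 young-pod signals had to be at least 100, the highest of 3 old-pod signals at most 40, and the former at least 3 times the latter. Of 11794 genes that the annotation names by 1 nuclear locus tag with no symbol, 32 met these limits, and 4 further loci had been left out by name. The contrast between young and old pods is therefore how the genes were found, and it is given below as a description and not as a test. Neither the array annotation nor the reference gene table gives these loci a symbol or a product, so no function is attached to them here.

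Siliques are the seed pods of the plant: valves enclose the developing seeds, and at maturity the pod wall dries and opens. While a young pod is green it grows, lays down wall material and feeds its seeds, whose coats make flavonoid pigments. In an old pod the valves senesce and the seeds have matured. A transcript that is high in young and low in old pods can thus belong to any tissue of the pod or the seed.

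The study took RNA from siliques to follow transcript changes during their senescence, and hybridised it to 6 Affymetrix ATH1 arrays, 3 labelled young pod and 3 labelled old pod. All plants were Col-1 of stock N1033, grown in compost in a glasshouse at 19 °C with light for 24 hours a day, and no genotype or treatment separated the groups. Every sample carries the same label for developmental stage, that of the first shattered silique, and the same tissue label of mature and senescing siliques, so only the titles tell young from old. The sources used here do not say how pod age was judged, and nothing says that the replicates came from separate plants, so p-values measure only the spread between these samples. Whole pods mix cell types, and fewer cells of a type and less RNA per cell cannot be told apart in such samples.

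The values are deposited intensities, a linear MAS5 signal for every probe set, in which probes that match a transcript are weighed against mismatched partners. Each array had been scaled to a trimmed mean of about 100, so a change shared by most transcripts would not show. Median signals were 49.5 to 52.9 on the young arrays and 39.5 to 49.6 on the old arrays. Between arrays, log2 signals correlated more closely inside a group (r from 0.858 to 0.951) than across the groups (r from 0.58 to 0.693). The log2 ratio of the 3 prime to the 5 prime actin probe set, a sign of RNA quality, was 2.68 to 3.46 on young and 2.56 to 4.52 on old arrays, and the ranges also overlapped for GAPDH and ubiquitin. The ratio was highest on old replicate 2 for actin and GAPDH (1.68), and on old replicate 1 for ubiquitin (2.23). The part of RNA quality in the differences was not tested. Signals of different probe sets depend on their probes, so they are compared below only within a gene.

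Across the arrays the 32 genes had a median signal of 198, 186 and 216 on young replicates 1, 2 and 3, against 19.8, 16.6 and 19.2 on old replicates 1, 2 and 3. No young array had a member at or under the array's 40th percentile, the level used here as the limit of a measured signal. The limit of 100 fixed this in advance, since that percentile was 32.5 to 36.5 on the young arrays. The old arrays had 28, 28 and 24 of the 32 members at or under it. There the limit of 40 left little room above percentiles of 24.3 to 34.5. In the comparison of old with young pods over all 14277 probe sets bright enough to be tested (limma, Benjamini-Hochberg adjusted p under 0.05), 32 of the 32 members passed, all lower in old pods. Over all tested probe sets 22.0% passed, 12.3% lower and 9.68% higher in old pods, and 23.0% had young signals wholly above the old ones. Since the same signals chose the members, nothing follows from their count. The members' median log2 difference, old minus young, was -3.66, and that of all tested probe sets was -0.08. Once every dim signal had been raised to its array's percentile, the medians were -2.69 and -0.1.

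**Figure D1:**
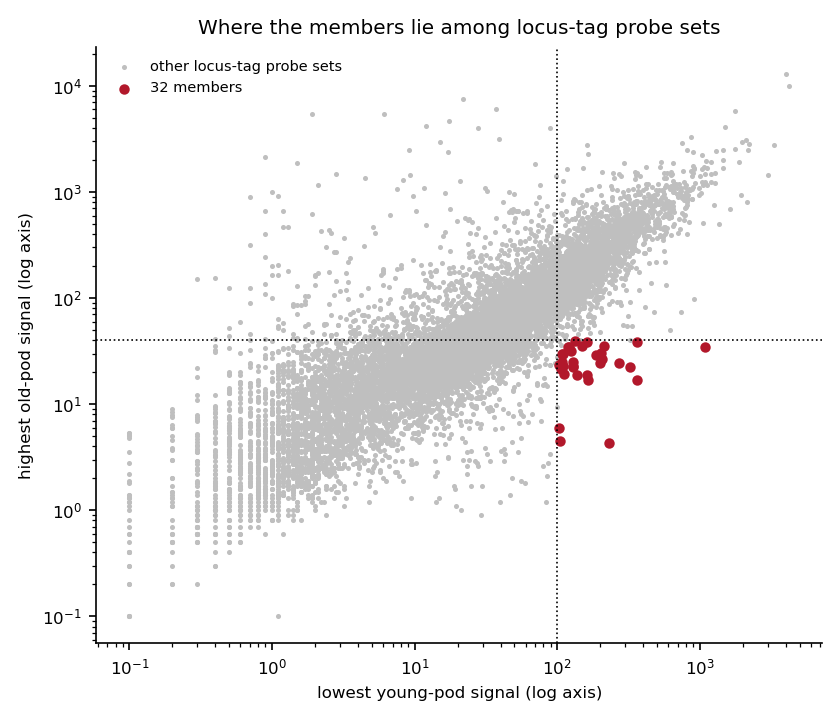
Each point is a locus-tag probe set, placed by its lowest signal on the 3 young arrays (x, log axis) and its highest signal on the 3 old arrays (y, log axis). The dotted lines are the limits of 100 and 40, and the 32 members (red) lie below and to the right of both, many of them close to the corner where the lines cross.

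The limits cut through a continuous spread of values. Just inside them lay AT5G42690, with an old signal of 39.8 on replicate 1, and AT5G40155 and AT1G35780, with lowest young signals of 102.1 and 102.4. AT4G15390 and AT4G23670 were also close, each with a highest old signal of 38.5. Just outside lay AT5G26850 with a lowest young signal of 99.6, AT4G36180 and AT5G60630 with highest old signals of 40.3 and 40.6, AT5G45670 with a lowest young signal of 98.8, and AT3G50620, whose ratio was 2.9. AT5G45670 had signals of 98.8, 163 and 490.4 in young and 9.3, 0.8 and 0.4 in old pods, a ratio of 10.6 that only 7 members exceed.

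Among the members, 7 had a lowest young signal at least 10 times the highest old signal. Signals are given in the order of replicates 1, 2 and 3. For AT5G62210 they were 335, 229.5 and 1011 in young pods and 4.3, 2.6 and 1.2 in old pods, and its lowest young signal was 53.4 times its highest old signal, the widest gap of the 32. AT5G38180 stood at 1087, 1286 and 1372 in young and 34.3, 2.3 and 6 in old pods. The young arrays were close together for this gene, while old replicate 1 stood well above the other old arrays. The signals of AT1G59930 were 136, 211 and 105 in young and 4.5, 2 and 1.7 in old pods. AT1G04645 gave 362, 454 and 486 in young and 10.1, 16.4 and 16.8 in old pods, tight within both groups. In AT5G40155 the signals ran 196, 199 and 102 in young and 1.3, 6 and 3.7 in old pods, with young replicate 3 near the limit of 100. Young pods gave 325, 425 and 671 for AT1G71690 and old pods 10.4, 5.6 and 22.4. For AT5G09370 the values were 271, 536 and 1232 in young and 24.4, 12.4 and 5.9 in old pods. The last 2 genes were lowest on young replicate 1 and highest on young replicate 3.

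A further 13 members had a gap of 5 to 10 times. In this range AT3G43960 stood at 202, 164 and 351 in young and 4, 16.9 and 12.2 in old pods. AT4G15390 ran the other way among the young arrays, at 1416, 557 and 363, and had 38.5, 7.3 and 29.5 on the old arrays. For AT5G53100 the signals were 161, 162 and 244 in young and 18.8, 10.9 and 10.9 in old pods. AT5G16030 gave 199.7, 296 and 454 in young and 12.2, 21.8 and 24.3 in old pods, and AT5G47330 gave 212, 206 and 327 in young and 26.6, 19.4 and 19.3 in old pods. The values of AT5G04160 were 159, 172 and 137 in young and 18.8, 4.8 and 16.7 in old pods, where old replicate 2 was low. AT5G01870 had 203, 212 and 563 in young and 30.1, 24.3 and 26.2 in old pods. Its old arrays were nearly level, and young replicate 3 was far above the other young arrays. AT5G16250, at 440.1, 375 and 188 in young and 29.3, 26.5 and 24.5 in old pods, was again level among the old arrays but lowest on young replicate 3. In AT3G05600 the young signals of 261, 216 and 212 were close together, and the old ones were 35.2, 11.3 and 14.9. AT2G43660 stood at 128, 111 and 304 in young and 6.5, 17.3 and 19.1 in old pods. AT1G56720 gave 142, 129 and 202 in young and 22.4, 20.9 and 10.3 in old pods, and AT1G23205 gave 157, 128 and 219.9 in young and 22.7, 16.4 and 7.1 in old pods. Both were highest on young replicate 3 and lowest on old replicate 3. For AT3G02640 the values were 219, 178 and 128 in young and 18, 24.8 and 15.7 in old pods.

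The other 12 members had gaps of 3.34 to 4.95 times, so their groups lay closest. AT4G23670 had the widest spread of the young arrays, 163, 902 and 687, above old signals of 8.1, 19.9 and 38.5. AT1G71250 was also uneven in young pods, at 539.6, 378 and 125, with 19.6, 13.6 and 31.8 in old pods. For AT1G06550 the signals were 157, 148 and 396 in young and 35.1, 17.2 and 24.9 in old pods, and for AT1G12330 they were 107, 136 and 276 in young and 29.5, 11.6 and 18 in old pods. In these 4 genes the highest young signal was 2.58 to 5.55 times the lowest. AT5G02890 had even young signals of 109.9, 146 and 150.2, and old signals of 2.8, 4.7 and 22.9 in which replicate 3 was well above the others. AT5G13600 was tight in both groups, at 129, 134 and 106 in young and 19.9, 14.8 and 21.3 in old pods. AT1G35780 had 124, 102 and 171 in young and 22.9, 23.4 and 20.2 in old pods, and only its old signals were nearly level. AT4G22110 had 109, 114 and 150.1 in young and 25.1, 22.7 and 12.6 in old pods. AT3G52870 stood at 146, 109.6 and 139 in young and 15.5, 18.9 and 30 in old pods. AT1G49580 had 215, 143 and 121 in young and 25.2, 34.3 and 33.7 in old pods, and AT5G42690 had 212, 133 and 157 in young and 39.8, 29.5 and 21.5 in old pods. AT3G57160 had 119, 193 and 179.5 in young and 7.1, 34.8 and 20.8 in old pods.

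**Figure D2:**
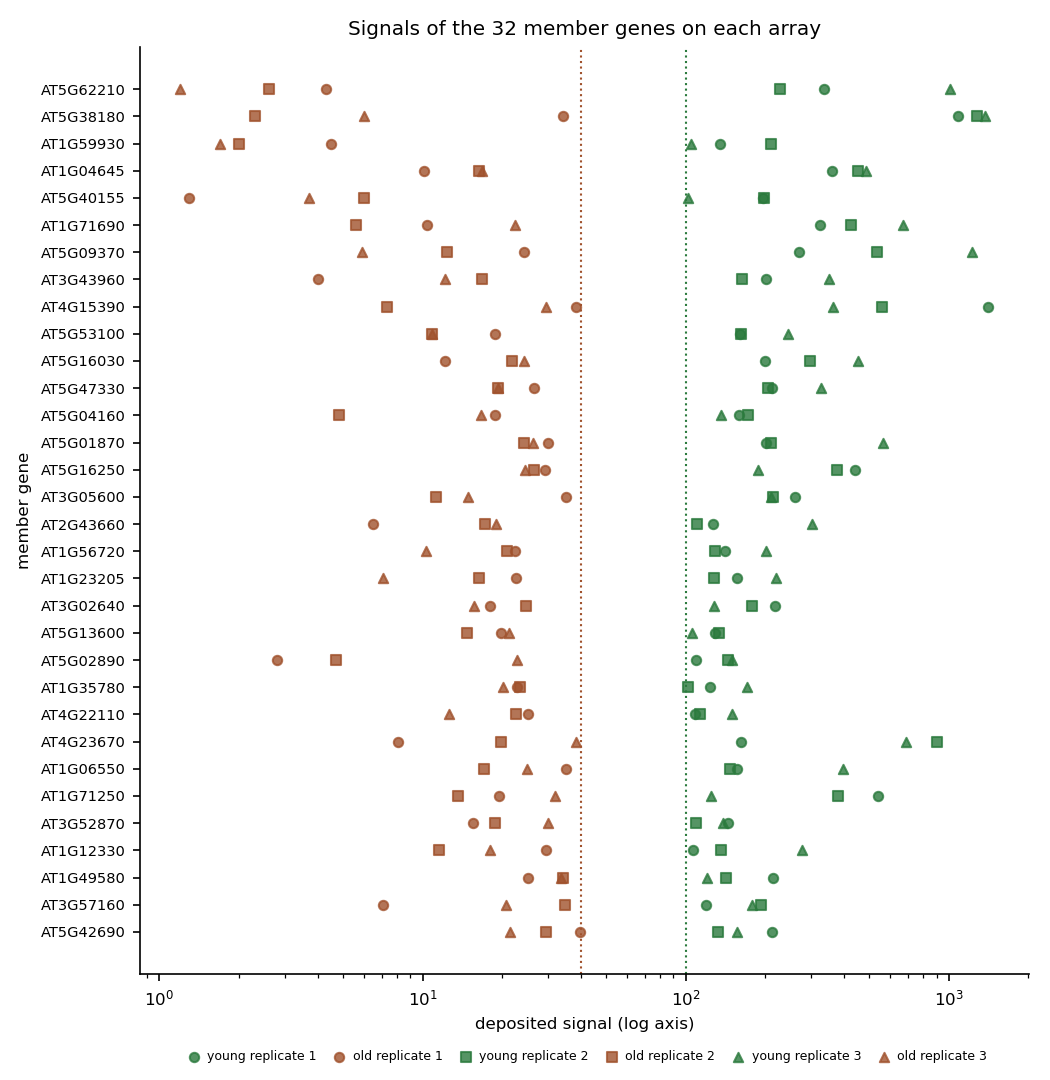
Deposited signal (x, log axis) of each of the 32 members (rows, ordered by the gap between the groups) on the 3 young arrays (green) and the 3 old arrays (brown), with a marker shape for each replicate number. Dotted lines mark the limits of 40 and 100, which no member crosses.

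No detection calls were used, so a dim signal sets an upper limit on a transcript and does not show that it is absent, and the folds depend on how the old arrays are read. All 3 old arrays were at or under the 40th percentile (24.3 to 34.5 on the old arrays) for 21 members. For these the fold is a lower bound, the mean log2 young signal against the mean of the old signals raised to that percentile. AT5G38180 was at least 44.9-fold higher in young pods (log2 young signal 10.28 ± 0.17, SD, n = 3 arrays). AT5G09370 was at least 20.4-fold higher, AT1G71690 at least 16.4-fold, AT1G04645 at least 15.6-fold and AT5G16030 at least 10.8-fold. These bounds also depend on single arrays. Without young replicate 3 they were 13.8-fold for AT5G09370, 13.5-fold for AT1G71690 and 8.8-fold for AT5G16030. That of AT1G04645 was 14.6-fold without old replicate 3. For AT5G62210 the bound was 15.4-fold, or 10-fold without young replicate 3. The fold between its mean log2 signals as deposited was 180, but it rests on old signals under 5. AT1G59930 and AT5G40155, which stood out by their gap, had bounds of only 5.21-fold and 5.74-fold. The other 13 bounds ran from 4.42-fold for AT5G13600 to 8.78-fold for AT5G47330.

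At least 1 old array was above the percentile for 11 members, so their folds rest only in part on old signals above it. For 6 of them 2 old arrays were at or under the percentile, and for 5 of them 1 was. AT4G15390 was 32.6-fold higher in young pods (SE 0.69 on the log2 scale, n = 3 arrays per group), or 21.5-fold with dim signals raised to the percentile, and 19.5-fold without old replicate 2. The fold of AT4G23670 was 25.3, 14.4 with dim signals raised, 16.8 without old replicate 1 and 42.8 without young replicate 1. AT1G71250 was 14.5-fold higher, 9.75-fold with dim signals raised, and 22.2-fold without young replicate 3. The fold was 12.6 for AT3G05600 (8.21 with dim signals raised), 11.8 for AT5G16250 and 10.8 for AT5G01870. AT3G57160 was at 9.3-fold, at 5.21-fold with dim signals raised and at 5.96-fold without old replicate 1. The other 4, AT1G06550, AT3G52870, AT5G42690 and AT1G49580, were 5.04-fold to 8.5-fold higher in young pods.

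**Figure D3:**
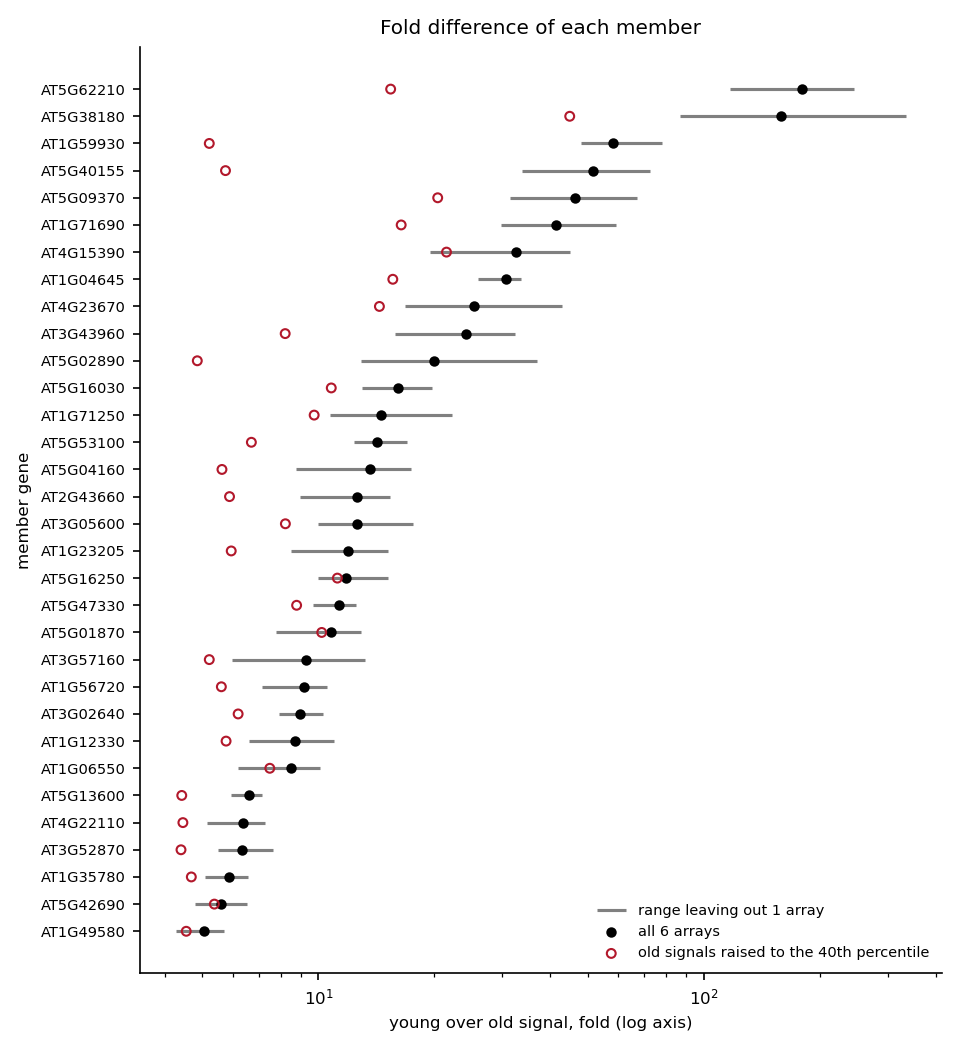
Young over old signal (x, log axis) for each member, as the fold between mean log2 signals on all 6 arrays (black), its range when each array is left out in turn (grey bar), and the value with old signals under their array's 40th percentile raised to it (open red circles). Raised signals bring AT5G62210 from 180-fold to 15.4-fold, while AT5G16250, with 2 old arrays above the percentile, hardly moves.

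The members also varied among the young arrays, which the choice of genes restricted only through the lowest of the 3. The ratio of the highest to the lowest young signal ran from 1.23 for AT3G05600 to 5.55 for AT4G23670, with a median of 1.75. Over the 5946 tested probe sets whose lowest young signal was also at least 100, the median ratio was 1.35. The SD of the log2 young signal had a median of 0.41 in the members and 0.226 in those probe sets. The wider spread was not particular to the members. Among others that met the same limits, the median ratio was 1.8 in 15 genes with a symbol and 1.83 in 40 unnamed probe sets. Young replicate 3 was the highest young array for 18 members (56.2%), replicate 1 for 8 and replicate 2 for 6. In the 5946 probe sets replicate 3 was the highest for 34.4%, and in all tested probe sets for 34.9%. The shares are given without a test, since genes on the same arrays are not independent.

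Within this spread 9 members highest on young replicate 3 differed by at least 2 times among the young arrays, AT5G62210, AT5G09370 and AT1G71690 among them. The difference was 4.55 times for AT5G09370 and 4.41 times for AT5G62210. The opposite order was seen in AT4G15390, AT1G71250 and AT5G16250, which were highest on young replicate 1 and lowest on replicate 3, by 3.9, 4.3 and 2.34 times. AT4G23670 followed neither, with replicate 1 far below replicates 2 and 3. The median log2 difference between young replicates 3 and 1 was 0.47 in the members, 20 of which were higher on replicate 3, and -0.003 in all tested probe sets. Whether the young samples differed in pod age was not tested.

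**Figure D4:**
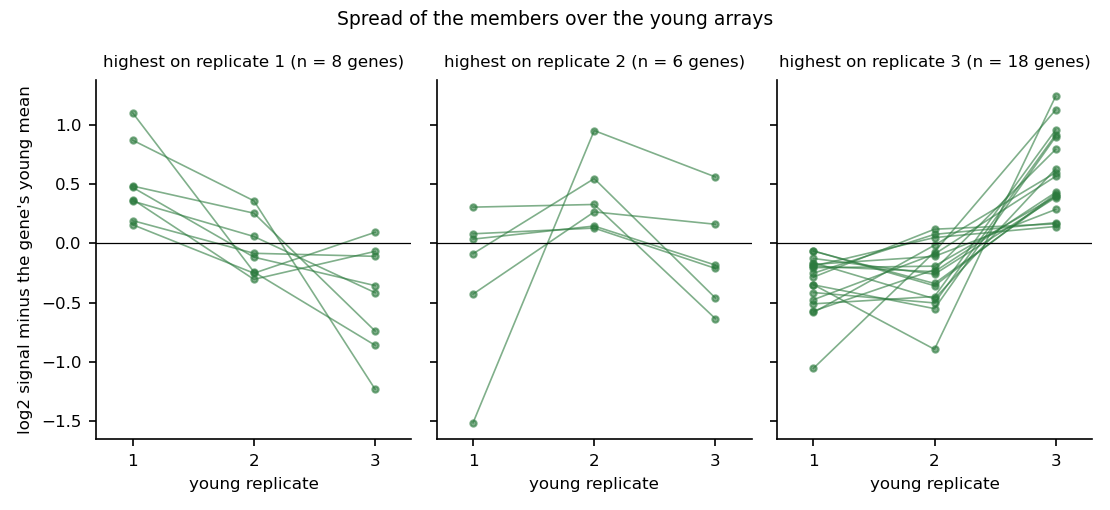
Log2 signal of each member minus its own mean over the young arrays (y), on young replicates 1, 2 and 3 (x). Lines join the values of 1 gene and stand for no order of the replicates. The 32 genes are split by the array on which they were highest, 8, 6 and 18 genes from left to right.

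Among the old arrays, replicate 1 was the highest for 17 of the 32 members (53.1%), replicate 3 for 9 and replicate 2 for 6. Old replicate 1 was the highest for 29.3% of the 5946 probe sets with a lowest young signal of at least 100, and for 39.2% of all tested probe sets. Those probe sets had no upper limit on their old signals, while the members' were held to 40. In this dim range old replicate 1 ran higher as a whole array. Its 40th percentile was 34.5, against 25.2 and 24.3 on old replicates 2 and 3, and its median 49.6, against 40.3 and 39.5. What part this had in the members' order was not tested. The old signals of AT5G38180 spread the most, by 14.9 times, and those of AT1G35780 the least, by 1.16 times. For both genes all 3 old signals were at or under the 40th percentile, where signals have no settled order. Their spread there is a description of the deposited values only. Old replicate 1 also did most to set who is a member. When it was left out 67 genes met the limits, so it alone kept out 35 genes, while old replicates 2 and 3 alone kept out 2 and 3. Leaving out young replicate 1, 2 or 3 gave 52, 37 or 47 genes.

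**Figure D5:**
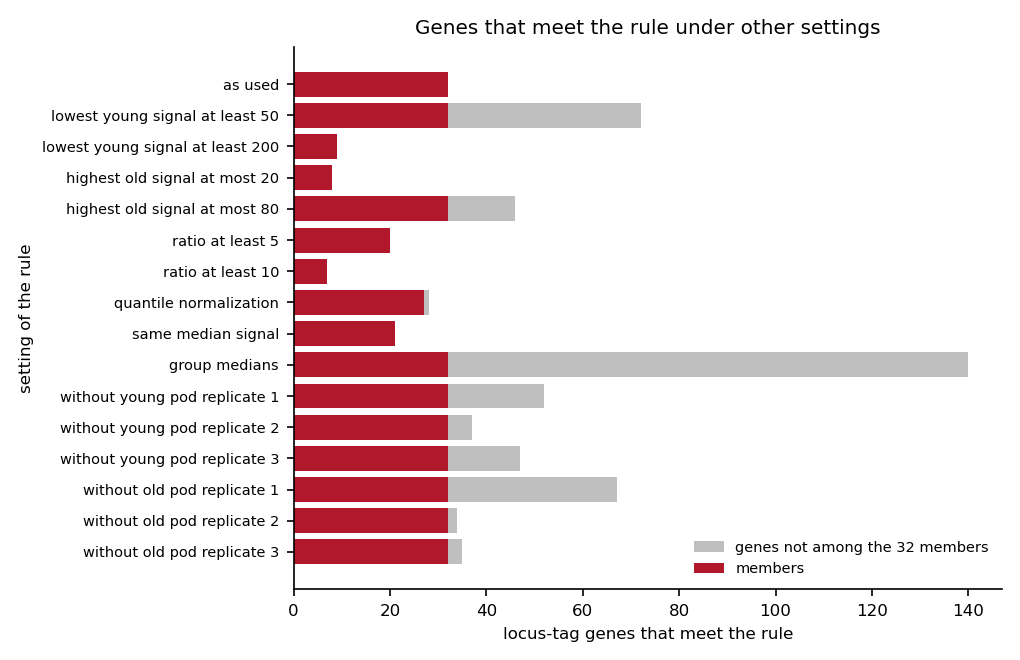
Number of locus-tag genes that meet the rule (x) as used and with other limits, other scalings or an array left out (rows). Red bars count genes among the 32 members and grey bars the additional ones. Using group medians in place of the lowest and highest signal gives 140 genes.

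A single probe set stood for each member, and 31 of the 32 genes had no other named probe set on the array. The exception was AT3G57160. Its second probe set gave 5.6, 5.2 and 5.2 in young and 7.4, 3.8 and 3.2 in old pods, dim on all 6 arrays, so the difference of AT3G57160 was seen by 1 of its 2 probe sets. The probe set of AT1G59930 is of the class marked _x_at, whose probes may also match other transcripts, and its signal may not be that gene's alone. The other 31 members were read by probe sets without such a mark.

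All 32 members are annotated as protein-coding. Chromosome 5 held 13 of them (40.6%), against 22.7% of the 11794 locus-tag genes. Chromosome 1 held 10 (31.2%, against 26.0%) and chromosome 3 held 5 (15.6%, against 20.5%). Chromosome 4 held 3 (9.38%, against 14.4%) and chromosome 2 held 1 (3.12%, against 16.4%). The median length of the gene in the reference table was 1658 bases for the members and 2081 bases for the locus-tag genes found there. No member lay next to another: the closest pair, AT5G16030 and AT5G16250, had 21 listed protein-coding genes between them, and AT1G71250 and AT1G71690 had 28. These figures are descriptions with no test.

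The genes next to the members on the chromosome were not chosen by signal. Of 61 such neighbours within 10 kilobases, 17 had a tested probe set of their own. In old pods 1 of them fell and 2 rose, while 14 did not pass the threshold. Of the 7654 tested genes with a name, 11.1% fell and 8.77% rose. The neighbours' median log2 difference, old minus young, was -0.45, and that of the named genes was -0.08, while the share of neighbours that fell, 5.88%, rests on 1 gene. The gene that fell was AT5G38170, next to AT5G38180, with signals of 8327, 4334 and 3008 in young and 1447, 375 and 699 in old pods. Its log2 difference, old minus young, was -2.72 (SE 0.53, limma adjusted p = 0.0103), and the groups did not overlap. AT5G53110, next to AT5G53100, rose by 1.65 on the log2 scale (SE 0.25, limma adjusted p = 0.00399), a call that ended only with scaling on the hybridisation controls (0.484). AT5G62200, next to AT5G62210, rose by 1.07 (SE 0.29, limma adjusted p = 0.0328). Its call ended without young replicate 2 or 3 or any of the old replicates (adjusted p = 0.0574 to 0.112), with quantile normalization (0.0521) and with scaling on the hybridisation controls (1.0). These 3 genes were named after their values had been seen. Beside AT4G23670, the neighbour AT4G23680 had mean signals of 54.1 in young and 5.2 in old pods. It was above the percentile on fewer than 3 of the 6 arrays, so it was not tested. The same held for AT1G06540 beside AT1G06550, at 35.5 and 4.5. Both were also picked after their values had been seen. Other neighbours left out of the test in the same way had higher mean signals in old pods, BHLH101, AT2G43670 and AT3G43950 among them.

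The same limits on signal were met by 93 probe sets in all, of which 35 named a gene by locus tag only, 15 a gene with a symbol, 3 several genes and 40 none. The 35 include 3 of the loci left out by name. The 4 of the 15 genes with a symbol given here were picked after their values had been seen. CHIL, a chalcone isomerase-like gene of flavonoid synthesis, had signals of 747, 775 and 1682 in young and 34.5, 3 and 3.1 in old pods. WSD1, a wax ester synthase, had 107, 305 and 348 in young and 1.6, 6.2 and 3.6 in old pods. IRX15, which acts in xylan synthesis of secondary walls, had 147, 116 and 152 in young and 4.8, 4.4 and 21.7 in old pods. EXPB3, a beta-expansin of wall loosening, had 101, 126 and 237 in young and 31.9, 17.2 and 20.5 in old pods. Young replicate 3 was the highest young array for 9 of these 15 genes and for 29 of the 40 unnamed probe sets, beside 18 of the 32 members. The reverse limits, at most 40 in young and at least 100 in old pods, were met by 34 locus-tag genes.

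Lists of genes for tissues that a pod holds give the members a setting, though few of their genes have a named probe set. None of the 32 members is in any list, and the choice of genes without a symbol largely fixed this in advance. Of the list genes with a named probe set, only AT2G22900, AT3G10320 and AT3G50990 are named by locus tag alone. Both tested genes of seed coat proanthocyanidin and flavonoid synthesis fell, and their median log2 difference, old minus young, was -5.79. Their summed signal was 2306 to 4238 on the young and 35 to 147 on the old arrays. These are BAN, the anthocyanidin reductase, and DFR, the dihydroflavonol reductase. In the list of seed coat mucilage and wall genes 2 of the 4 tested fell, none rose, and the median was -1.81. They are the vacuolar processing enzyme gene DELTA-VPE and the subtilase gene ARA12, whose mean signal went from 1852 to 354, a 5.3-fold fall (SE 0.22 on the log2 scale, limma adjusted p = 0.000597). In the same list AT2G22900 was lower in old pods and AT3G10320 higher, with log2 differences, old minus young, of -1.21 and 1.15. Neither passed (limma adjusted p = 0.0654 and 0.0538). AT3G50990, of the same list, had signals of 762, 385 and 13.2 in young and 16.5, 2.6 and 3.4 in old pods. It was under the percentile on young replicate 3 and all old arrays, so it was not tested.

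Photosystem genes of the green valves gave signals above the percentile on all 6 arrays. Of 3 such genes tested, only PSBY, a photosystem II protein, fell, by 0.72 on the log2 scale, and its call ended without young replicate 1 or 2 or any of the old replicates (limma adjusted p = 0.0555 to 0.129), in replicates 2 and 3 only (0.0601), with median centring (0.191), with no filter (0.0751) and with scaling on the hybridisation controls (1.0). The list's median was -0.67. The only tested gene of dividing cells, the replication factor PRL, fell by 1.8, and the only tested gene of lignified tissue, the xylan synthesis gene GUT2, fell by 1.98, both on the log2 scale. Scaling on the hybridisation controls ended the calls of ARA12, PRL and GUT2 (limma adjusted p = 0.0906, 0.344 and 0.314). OLEO3, an oleosin of seed oil bodies and the only embryo gene tested, was at 0.05 (SE 1.0) and did not pass. Of the endosperm list, AGL62 and IKU2 were dim on all arrays, and the lists for the epidermis and for petals and stamens had no named probe set. What part a change in the makeup of the pods had in the members' differences was not tested.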

How the data were processed

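RNA of 3 young-pod and 3 old-pod samples was measured on Affymetrix ATH1 arrays. The deposited values are intensities, 1 linear signal per probe set, for which the submitters' processing notes name MAS5. After trimming 2% at both ends, each array's mean was about 100. The sources used here give no MAS5 version and no detection calls. The number of arrays limits the precision. Names come from the platform annotation, checked by gene number against TAIR10.1, which held 13436 of 13513. Of 22746 probe sets other than controls, 8730 have no name in it and 503 have several.

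Signals were taken as log2 with a floor of 0.1. Probe sets that exceeded the 40th percentile of an array on 3 or more of 6 arrays were tested with limma 3.58.1 in R 4.3.3 (lmFit, eBayes with a variance trend), two-sided, with Benjamini-Hochberg adjustment at 0.05. The fit was tested on simulated data. The other values were computed in Python 3.11.15 with pandas 2.3.3. Samples were grouped by title. Young and old arrays of replicate 1, 2 and 3 deviated together from their group means (r = 0.286, 0.113 and 0.119, each above 0.1), so the numbers were taken to pair the arrays in an alternative fit.

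The members and the gene lists were chosen with earlier results of these data known. Any member could be named. The rule gave values on every array to the 20 members with the largest gap, and they are printed for all 32. Of each list up to 4 passing genes were named, or the brightest where none passed. IKU2, AGL62, AT2G22900, AT3G10320, AT3G50990 and the neighbours of members fall outside that rule. Alternatives covered scaling, the filter, the floor, the variance trend, the replicate block, the limits of the rule and leaving out each array. No protein or promoter sequence was used.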

Additional observations from a re-analysis of the deposited data

How the results depend on the processing

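Each member was recomputed under 14 settings, which gave 448 values. None changed direction. The limits had set every young signal at least 3 times every old one, so leaving out arrays could not reverse a member. Of the values, 24 moved by more than 1 SD of the replicates, and log2 differences, old minus young, ran from -8.48 to -1.95. With scaling on the hybridisation controls 30 of the 32 members passed, AT5G42690 and AT1G49580 being the exceptions, and all 32 passed under each other fit. The same signals chose the members, so nothing follows from these counts. The number of members itself depends on the limits: 72 genes with a young limit of 50, 9 with 200, 8 with an old limit of 20, 20 and 7 with a ratio of at least 5 and 10, 21 with arrays scaled to the same median, and 140 with group medians. It was 34 to 67 with 1 array left out. The count over all probe sets, 3145, was 628 with scaling on the hybridisation controls, and 1736 to 3602 with 1 array left out. The share of passing probe sets that were lower in old pods was 56.1%, and 37.6% with median centring, which moved the median log2 difference of all tested probe sets from -0.08 to 0.18. The replicate block gave 3480. It changed no call of a member and no count by over 1.5 times, apart from the photosystem and antenna list, where 2 of 3 genes passed in place of 1. That list had 0 passing with scaling on the hybridisation controls, median centring, no filter, or replicates 2 and 3 only, and 0 to 1 with 1 array left out. With the hybridisation controls 1 gene of the mucilage and wall list passed, 0 of dividing cells and 0 of lignified tissue. With replicates 2 and 3 only, all 4 tested genes of the mucilage and wall list passed, but not in the same direction. Among them AT3G10320 was higher in old pods, at 14.3 and 20.6 in young and 43.6 and 42.3 in old pods. The cause of these shifts was not tested. MAS5 signals under the 40th percentile have no settled order, which limits every fold against old pods.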
